A study of Zea mays with 96 samples.

Results

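The genes described here were late genes of the maize endosperm, the nutritive tissue of the kernel: the 200 genes whose transcripts increased most from 12 to 16 days after pollination (DAP) in wild-type (WT) kernels. They were chosen from 46430 genes with RNA-seq counts. Each count was divided by its library's reads on genes and multiplied by 1000000 to give CPM, and L denotes the log2 ratio of 2 group means after 1 CPM was added to each. A gene qualified when the mean of the 4 WT libraries at 16 DAP was at least 5 CPM and L of 12 against 8 DAP was below 2, which 11333 genes met, and the 200 with the highest L of 16 against 12 DAP were taken. The WT levels at the 3 timepoints therefore chose the members and are given as a description. Tests are reported for mutant libraries, which the choice did not use.

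Endosperm RNA was sequenced in 8 genotypes in the W22 inbred background at 8, 12, and 16 DAP, with 4 libraries for each genotype and timepoint (96 libraries). WT was compared with the single mutants *nkd1* (allele *nkd1-Ds*), *nkd2* (allele *nkd2-null*), and *o2*, with the double mutants *nkd1 nkd2*, *nkd1 o2*, and *nkd2 o2*, and with the triple mutant *nkd1 nkd2 o2*, all homozygous. All lines, WT included, descended from selfed triple heterozygotes among whose progeny the homozygotes were picked. For each library, 3 endosperms were pooled, and the 4 libraries of a group came from 4 independent ears. The plants were grown in a greenhouse or a field, and which library came from which was not given in the sources used here. The endosperm was sampled as a whole, so fewer cells of a type and less RNA per cell cannot be told apart.

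Opaque2 (O2) is a bZIP transcription factor (TF) that activates zein storage protein genes and genes of nitrogen and carbon metabolism during grain filling. Naked endosperm1 and 2 (NKD1 and NKD2) are duplicate indeterminate domain TFs that act in aleurone differentiation and also in starchy endosperm. The interval from 12 to 16 DAP falls within grain filling, when starch and zeins accumulate in the starchy endosperm and the aleurone, its outer layer, differentiates. Several annotated members encode proteins with known roles. Heat shock 70 kDa proteins and the class I small heat shock proteins are chaperones that bind unfolded proteins, and heat stress TFs activate their genes. Allantoate deiminase releases ammonium from a product of purine breakdown, proline oxidase degrades proline, and serine--glyoxylate aminotransferase moves an amino group from serine to glyoxylate. Acyl-CoA oxidase starts the β-oxidation of fatty acids in peroxisomes, and triglyceride lipases free fatty acids from stored oil. Glyoxalase I removes methylglyoxal, metallothioneins bind metal ions, and thaumatin-like proteins belong to a family of pathogenesis-related proteins.

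The libraries held 31327665 to 68052826 reads on genes. The *nkd2* transcript had at most 63 counts in any library that carried *nkd2-null*, and the *o2* transcript at most 81 counts in any library that carried *o2*. The *nkd1* transcript remained at 32.3 to 144 CPM in genotypes with *nkd1-Ds*, against 81.8 to 200.4 CPM in WT. Of the marker genes, 7 were matched by symbol. At 16 DAP the starchy endosperm gene *fl2*, an α-zein, averaged 29683 CPM in WT, 565 CPM in *o2*, and 1.49 CPM in *nkd1 nkd2 o2*. The embryo gene *esp1* averaged at most 20.3 CPM (*o2*) in any genotype, and the aleurone gene *c1* at most 0.629 CPM. The other aleurone marker, *nkd1* itself, averaged 93.8 CPM in WT and 556 CPM in *o2* at 16 DAP, so the aleurone markers did not go together. The part of these cell types in the members' levels was not tested. In WT at 16 DAP, 30.9% to 31.9% of reads went to the 10 highest genes, but 12.96% to 15.2% did so in *nkd1 nkd2 o2*, so that a CPM is a share of a different remainder in each genotype. Tests therefore used the trimmed mean of M-values (TMM) of edgeR, and fold changes are relative to the bulk of genes. Libraries 1 and 2 of *nkd2* at 12 DAP stood apart in the members, as described after the course in WT, and the rise in *nkd2* is given with and without them.

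In WT, the members were mostly genes of modest level that became prominent late. The median member averaged 5.27 CPM at 8 DAP, 3.67 CPM at 12 DAP, and 16.2 CPM at 16 DAP, and the median of all 11333 qualifying genes at 16 DAP was 20.5 CPM. At 16 DAP, 16 members exceeded 100 CPM and 64 had 10 CPM or less. The summed level of the 200 members was 2320.4, 2379, 2443, and 2298 CPM in the 4 WT libraries at 12 DAP and 7541, 7769, 7839.9, and 9253 CPM at 16 DAP. The increase was not always from an early zero. 92 members had a higher WT mean at 8 than at 12 DAP, 47 of them by more than 2-fold, so that a dip at 12 DAP preceded the increase, and 25 stood higher at 8 than at 16 DAP. In contrast, 44 members averaged under 1 CPM at 8 DAP and 19 did so at 12 DAP. In 189 of the 200 members, all 4 WT libraries at 16 DAP exceeded all 4 at 12 DAP, against 14.3% of the qualifying genes, a contrast that the choice of members used.

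Zm00001d047261 was the member with the highest L (5.85). It measured 0, 0.0499, 0.619, and 0.116 CPM in WT at 12 DAP and 54.3, 59.5, 75.1, and 83.7 CPM at 16 DAP, and it had no read in any WT library at 8 DAP. The jacalin-related lectin gene Zm00001d035559, whose protein family binds carbohydrates, measured 0.0398, 0.1498, 1.298, and 0 CPM at 12 DAP and 23.9, 22.9, 28.7, and 32.7 CPM at 16 DAP. The serine--glyoxylate aminotransferase gene Zm00001d031349 measured 0.0199, 2.097, 0.839, and 0.743 CPM at 12 DAP and 11.9, 17.7, 17.2, and 17.98 CPM at 16 DAP. All 3 were thus almost silent at 12 DAP and clearly present 4 days later. Zm00001d012420 had the highest WT level at 16 DAP. It measured 369, 355, 446, and 697 CPM at 8 DAP, 348, 249, 269, and 300.1 CPM at 12 DAP, and 835, 823, 889, and 946 CPM at 16 DAP. It was followed by Zm00001d038806, with 41.9, 47.4, 54.9, and 37.9 CPM at 12 DAP and 442, 319, 350.1, and 771 CPM at 16 DAP, where library 4 was the highest. Zm00001d040593, by contrast, stood at 487, 257, 367, and 44.9 CPM at 8 DAP, 10.9, 16.3, 18.2, and 34.7 CPM at 12 DAP, and 38.2, 57.8, 56.9, and 49.004 CPM at 16 DAP, a dip and a partial return in which the 8 DAP libraries differed widely among themselves. The choice of exactly 200 members cut through a continuum. The last members were Zm00001d046182 and Zm00001d039280, both with L of 1.13, and the first genes outside were Zm00001d047302 with 1.13 and Zm00001d012687 with 1.12.

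**Figure D1:**
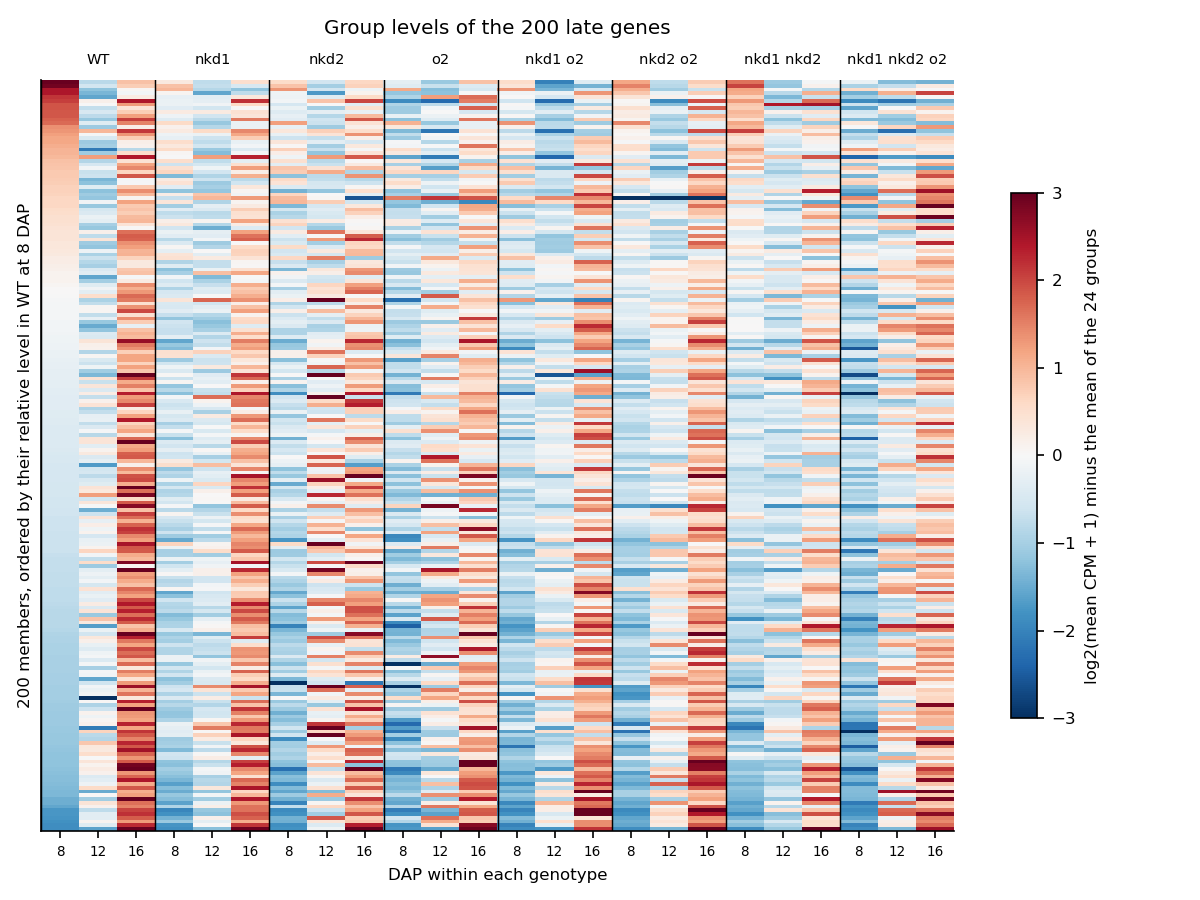
Levels of the 200 late genes in the 24 groups of 4 libraries, as log2(mean CPM + 1) minus the mean of the 24 groups, with one line per member, ordered by the relative level in WT at 8 DAP, and with genotypes and DAP across (red high, blue low, colours limited to 3 either side of 0). The WT column at 16 DAP is redder than that at 12 DAP by the choice of members, and the members at the top were also high in WT at 8 DAP.

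The late change persisted in all mutants, and its median was smaller than in WT in each of them, as the choice of members favours. On the CPM scale the median L of 16 against 12 DAP over the 200 members, 1.48 in WT by choice, was 1.301 in *nkd1*, 1.197 in *nkd1 o2*, 1.05 in *nkd2 o2*, 0.881 in *o2*, 0.8499 in *nkd1 nkd2*, 0.8205 in *nkd2*, and 0.661 in *nkd1 nkd2 o2*. Over the 11333 qualifying genes the same median lay between −0.34 (*nkd1*) and 0.02 (*nkd1 nkd2 o2*). The value in *nkd2* was 1.21 without libraries 1 and 2 at 12 DAP and 0.639 without libraries 3 and 4. Members with L above 1 numbered 135 in *nkd1* and 72 in *nkd1 nkd2 o2*, and members with L below 0 numbered 9 and 39. Because the members were chosen for a large change in WT, a smaller median in any other group of libraries is built into the choice, and these values are a description.

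The smaller change in *o2* and in *nkd1 nkd2 o2* came with higher sums of the members at 12 DAP than in WT, whose low level at 12 DAP was part of the choice. The sum was 4813, 4513, 4389, and 4477 CPM in *o2* and 4317, 4235, 4359, and 4029 CPM in *nkd1 nkd2 o2* at 12 DAP, where no WT library exceeded 2443 CPM. At 16 DAP the sum was 6192, 5645, 4880.1, and 6642 CPM in *o2* and 6110.1, 7046, 5344, and 5554 CPM in *nkd1 nkd2 o2*. The sum is carried by the most abundant members. The median L against WT at 12 DAP was 0.33 over the members and 0.33 over the qualifying genes in *o2*, and 0.41 and 0.36 in *nkd1 nkd2 o2*, so that the typical member differed from WT about as much as all genes did on this scale. *nkd1 nkd2* followed another course, with 2957, 3256, 3126, and 3195 CPM at 12 DAP and 4633, 4037, 4752, and 4007 CPM at 16 DAP, a range that no library of another genotype entered at 16 DAP except library 4 of *nkd2* (4599.9 CPM). Of the 200 members, 67 had their highest 16 DAP mean in WT and 54 had their lowest in *nkd1 nkd2*. The count for WT was favoured by the choice of members, and both counts are on the CPM scale and are a description. *nkd1* measured 4155, 3976, 2793, and 2691 CPM at 12 DAP and 6225, 6248, 7830.3, and 5524 CPM at 16 DAP, the sums closest to WT at the later timepoint. In every genotype except *nkd2*, described next, all 4 sums at 16 DAP exceeded all 4 at 12 DAP.

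**Figure D2:**
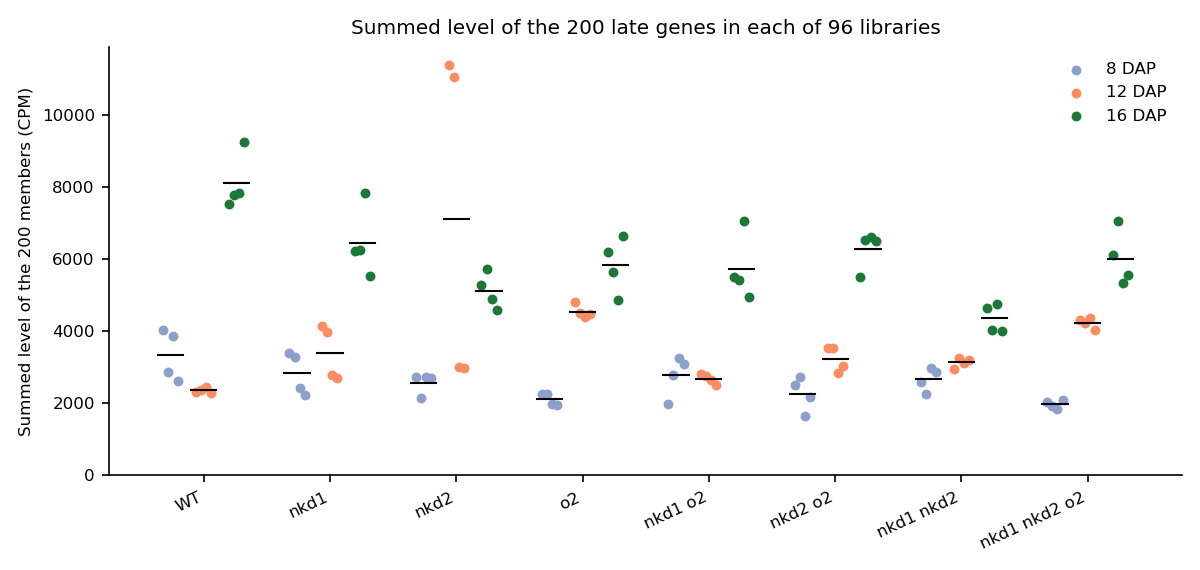
Summed CPM of the 200 late genes in each of the 96 libraries, by genotype and days after pollination, with one point per library (blue 8, orange 12, green 16 DAP) and a line at the mean of 4. Libraries 1 and 2 of *nkd2* at 12 DAP, at 11399 and 11042 CPM, lie above all other libraries, and *nkd1 nkd2* stays under 5000 CPM at 16 DAP.

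At 12 DAP, libraries 1 and 2 of *nkd2* held some of the late genes far above the other 2. The members summed to 11399, 11042, 3004, and 2971 CPM in the 4 *nkd2* libraries at 12 DAP and to 5284, 5732, 4896, and 4599.9 CPM at 16 DAP. The first 2 libraries were higher than any WT library at any timepoint, and the other 2 were near the WT level at 12 DAP. The median member was not at its 16 DAP level, however. Its log2(CPM + 1) was 3.15, 3.201, 2.13, and 2.05 in *nkd2* at 12 DAP, 3.63, 3.58, 3.45, and 3.58 in *nkd2* at 16 DAP, and 3.97, 4.06, 4.07, and 4.196 in WT at 16 DAP. In these libraries, 30 of the 200 members (15%) stood at least 4-fold higher in both of libraries 1 and 2 than in both of libraries 3 and 4, against 34 of the 11333 qualifying genes (0.300%), so that nearly all genes with such a split were late genes. At 2-fold, 64 members (32%) and 116 qualifying genes (1.02%) were split this way, and 0 members and 148 qualifying genes the opposite way. The same split at 2-fold took 9 members in *nkd1* (4.5%, against 0.459% of qualifying genes) and 6 in *nkd2 o2* (3%, against 0.150%). It took at most 3 in the other genotypes at 12 DAP. The opposite split took 1 member in *nkd1* and 0 in *nkd2 o2*. The 30 members, chosen here for this split and so described without a test, included all 3 members annotated as heat shock proteins or their TF. Their sum was 5679, 5601, 520.3, and 624 CPM in *nkd2* at 12 DAP and 982, 1043, 945, and 495 CPM at 16 DAP. In WT it was 445, 440.01, 461, and 350.1 CPM at 12 DAP and 1967, 1977, 1987, and 3153 CPM at 16 DAP. In *nkd1* at 12 DAP it was 1415, 1263, 515, and 498 CPM, so libraries 1 and 2 were the higher ones there too. In *nkd1 nkd2* at 12 DAP it was 541, 614, 597, and 620 CPM, without such a split. The other 170 members also stood higher in the first 2 *nkd2* libraries at 12 DAP, with sums of 5721, 5441, 2483, and 2347 CPM.

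Zm00001d024903 had the widest split. It measured 499, 479, 1.95, and 4.296 CPM in *nkd2* at 12 DAP, 22.1, 21.01, 15.6, and 5.72 CPM in *nkd2* at 16 DAP, and 44.4, 91.5, 96.5, and 218 CPM in WT at 16 DAP. The heat stress TF gene *hsftf17* (Zm00001d033987), annotated as similar to factor A-6b, measured 62.2, 56.4, 1.04, and 1.88 CPM in *nkd2* at 12 DAP and 15.6, 14.001, 8.33, and 26.9 CPM in WT at 16 DAP. The heat shock 70 kDa protein 8 gene Zm00001d048073 measured 896, 904, 46.7, and 66.2 CPM in *nkd2* at 12 DAP, and the class I small heat shock protein gene Zm00001d039933 measured 49.8, 45.8, 1.81, and 1.904 CPM. In each of the 4 genes, libraries 1 and 2 lay far above libraries 3 and 4. The growth site and the ear of each library were not given in the sources used here.

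Which members rose from 12 to 16 DAP was tested within each mutant, whose libraries the choice of members did not use. A gene was called when edgeR's adjusted P-value was under 0.05 and the absolute log2 fold change (log2FC) above 1, among 27328 genes tested, which included all 200 members. Late genes rose in every mutant far more often than other genes did. In *nkd1*, 169 members rose (84.5%) and none fell, against 5.1% of all genes tested that rose and 8.64% that fell. The counts of members that rose were 126 in *nkd1 o2* (background 7.41%), 118 in *nkd2 o2* (5.05%), 118 in *nkd1 nkd2* (5.61%), 112 in *o2* (6.05%), 108 in *nkd2* (4.26%), and 72 in *nkd1 nkd2 o2* (3.97%). The median log2FC of the members was 1.95 in *nkd1*, 1.45 in *nkd1 o2*, 1.40 in *nkd2 o2*, 1.34 in *nkd1 nkd2*, 1.24 in *nkd2* (1.73 without libraries 1 and 2 at 12 DAP and 0.88 without libraries 3 and 4), 1.23 in *o2*, and 0.82 in *nkd1 nkd2 o2*, whereas the median of all genes tested lay between −0.06 (*nkd1*) and 0.00119 (*nkd1 nkd2*). Members that fell numbered 26 in *nkd2* (background 7.27%), 13 in *o2* (6.52%), and 7 in *nkd1 nkd2 o2* (4.07%). The 26 were 11 in a fit of these 8 libraries alone and 15 without replicate 1, and the 7 were 4 and 3 without replicates 1 and 3. In *nkd1 nkd2* 2 fell (Zm00001d039566 and Zm00001d010529, background 5.9%), in *nkd2 o2* 1 fell (Zm00001d009907, named after its value was seen, background 4.35%), and in *nkd1 o2* none fell (8.13%). These counts became 1 in *nkd1 nkd2* without replicate 2, 3, or 4, 0 in *nkd2 o2* without replicate 1 or 2, and 1 in *nkd1 o2* without replicate 3 or 4. The falls in *nkd2* rested on the libraries that stood apart. Without libraries 1 and 2 of *nkd2* at 12 DAP, 137 members rose and 2 fell, and without libraries 3 and 4, 63 rose and 34 fell. These settings were chosen after the data were seen.

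**Figure D3:**
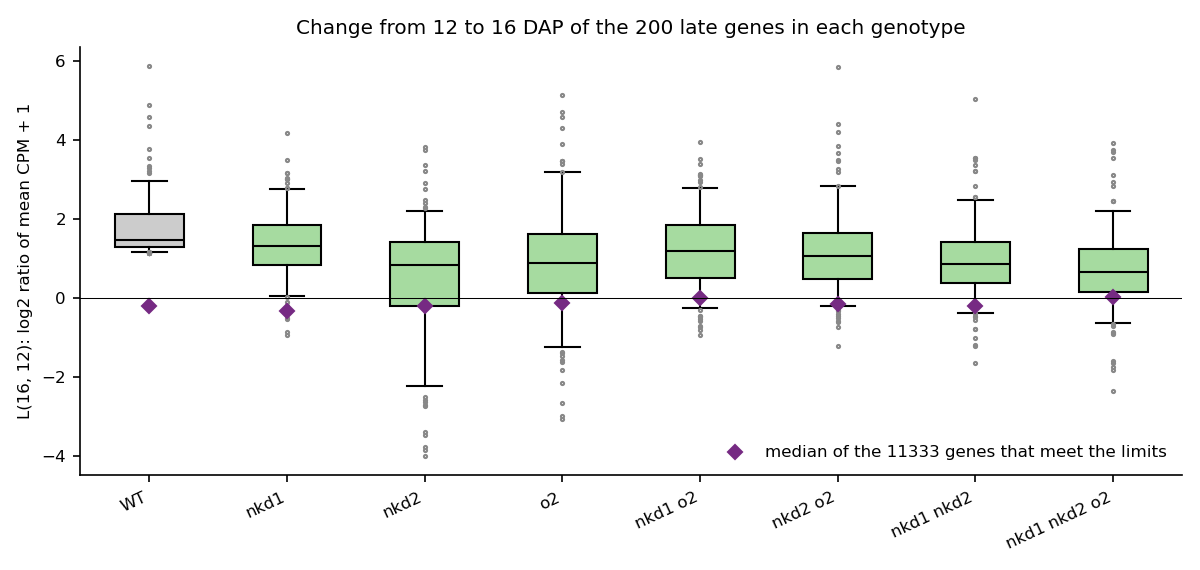
Change of the 200 late genes from 12 to 16 DAP in each genotype, as L of the mean CPM, with boxes from the lower to the upper quartile, a line at the median, whiskers from the 5th to the 95th percentile, points beyond, and a diamond at the median of the 11333 qualifying genes. WT, which chose the members, lies above 1 throughout, and the mutant medians range from 1.301 in *nkd1* to 0.661 in *nkd1 nkd2 o2*.

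A set of late genes rose in every mutant. 23 members rose in all 7 mutants, against 0.271% of all genes tested, and 92 rose in at least 5, against 1.62%. With the rise of *nkd2* taken without libraries 1 and 2 at 12 DAP these counts were 26 and 102, and without libraries 3 and 4 they were 14 and 80. Zm00001d047261, the first-ranked member, was among those that rose throughout. It measured 0.0698, 0.196, 0.171, and 0.279 CPM in *o2* at 12 DAP and 31.3, 28.96, 30.1, and 17.3 CPM at 16 DAP (log2FC 7.36 ± 0.94 (SE), edgeR adjusted P = 2.58e-09), with no overlap. In *nkd1 nkd2 o2* it measured 0.0407, 0, 1.52, and 0.165 CPM at 12 DAP and 17.1, 28.4, 20.9, and 15.7 CPM at 16 DAP (log2FC 5.56 ± 0.85 (SE), edgeR adjusted P = 6.80e-07). One library at 12 DAP was higher than the other 3 but still below all 4 at 16 DAP, and without replicate 3 the log2FC was 8.09. The amine oxidase1 gene (Zm00001d025103), whose product deaminates amines, also rose in all 7. It measured 1.48, 0.811, 0.356, and 0 CPM in *nkd2* at 12 DAP and 7.501, 7.47, 5.81, and 12.03 CPM at 16 DAP (log2FC 3.82 ± 1.03 (SE), edgeR adjusted P = 0.00226). The value was 5.83 without libraries 1 and 2 at 12 DAP, 4.65 without replicate 1, and 3.01, no longer past the threshold, without libraries 3 and 4. The lectin gene Zm00001d035559 was called in all 7 mutants as well. Some groups of these 2 genes overlapped, however. The lectin gene had 28, 9, 6, and 0 counts in *nkd1 nkd2* at 12 DAP and 172, 95, 792, and 15 at 16 DAP. In *nkd1 nkd2 o2* it had 0, 0, 42, and 21 counts and then 179, 320, 75, and 39. The amine oxidase1 gene had 1, 0, 3, and 17 counts in *nkd1 nkd2* and then 184, 112, 253, and 7.

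Zm00001d049405 showed a steady late rise across genotypes. It measured 28.97, 32.4, 31.1, and 28.4 CPM in *nkd1* at 12 DAP and 107, 112, 135, and 90.4 CPM at 16 DAP (log2FC 2.31 ± 0.24 (SE), edgeR adjusted P = 9.03e-13). In *nkd1 nkd2 o2* it measured 46.5, 46.9, 71.005, and 65.9 CPM at 12 DAP and 158, 122, 117, and 107 CPM at 16 DAP (log2FC 1.09 ± 0.23 (SE), edgeR adjusted P = 1.53e-04), and without replicate 1 the log2FC was 0.88, below the limit of 1. The groups did not overlap in either genotype, but the 12 DAP libraries of *nkd1 nkd2 o2* started higher. Zm00001d008396 measured 33.9, 31.2, 41.7, and 34.7 CPM in *nkd1 nkd2* at 12 DAP and 132, 113, 115, and 111 CPM at 16 DAP (log2FC 1.99 ± 0.15 (SE), edgeR adjusted P = 1.72e-17). Zm00001d028199 measured 38.98, 41.6, 39.2, and 36.9 CPM in *nkd1 o2* at 12 DAP and 141, 163, 223, and 129 CPM at 16 DAP (log2FC 2.11 ± 0.27 (SE), edgeR adjusted P = 1.08e-09). Both rose with no overlap, and library 3 of *nkd1 o2* at 16 DAP stood above the rest of its group for Zm00001d028199. Zm00001d024303 measured 0.554, 0.164, 0.158, and 0.146 CPM in *nkd1 nkd2* at 12 DAP and 8.49, 6.13, 38.2, and 1.53 CPM at 16 DAP (log2FC 6.05 ± 0.78 (SE), edgeR adjusted P = 2.16e-09). Library 3 was the highest at 16 DAP, and the log2FC was 4.44 without replicate 3 and 6.93 without replicate 1. Zm00001d015558 rose in *o2*, from 0.175, 0.177, 0.0571, and 0.0588 CPM at 12 DAP to 28.02, 32.5, 25.3, and 26.2 CPM at 16 DAP (log2FC 8.08 ± 0.99 (SE), edgeR adjusted P = 4.05e-10), and the 4 libraries at 16 DAP were close to each other and above every WT library.

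Other members did not rise, or fell, in some genotypes. Zm00001d020898 measured 86.8, 91.6, 73.5, and 58.8 CPM in *nkd1* at 12 DAP and 286, 294, 290.2, and 227 CPM at 16 DAP (log2FC 2.24 ± 0.35 (SE), edgeR adjusted P = 1.77e-07). In *o2* it measured 316, 283, 248, and 220.2 CPM at 12 DAP and 125, 97.6, 97.7, and 125 CPM at 16 DAP (log2FC −1.07 ± 0.34 (SE), edgeR adjusted P = 0.00895), and the call was lost without replicate 1 or 2 (log2FC −1.05 and −0.97). The gene thus stood high at 12 DAP in *o2*, with no overlap with 16 DAP. Zm00001d008841 measured 11.9, 10.9, 8.23, and 8.79 CPM in *o2* at 12 DAP and 115, 49.6, 60.3, and 172 CPM at 16 DAP (log2FC 3.52 ± 0.66 (SE), edgeR adjusted P = 1.20e-05). In *nkd1 nkd2 o2* it measured 94.7, 50.1, 26.7, and 29.3 CPM at 12 DAP and 9.801, 16.9, 4.55, and 4.45 CPM at 16 DAP (log2FC −2.52 ± 0.64 (SE), edgeR adjusted P = 0.00175). It rose in one and fell in the other. Zm00001d012420, the most abundant member in WT, measured 2659, 2422, 755, and 821 CPM in *nkd2* at 12 DAP and 428, 454, 467, and 262 CPM at 16 DAP (log2FC −1.84 ± 0.25 (SE), edgeR adjusted P = 8.62e-09). Libraries 1 and 2 were again the high ones at 12 DAP, and without them the log2FC was −0.69 and no longer past the threshold. This gene was 1 of 10 members that rose in none of the 7 mutants, against 81.9% of all genes tested, a count of 9 without libraries 1 and 2 and 11 without libraries 3 and 4.

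Loss of O2 was examined at 16 DAP in 3 comparisons that share no libraries and use no WT library: *nkd1 o2* against *nkd1*, *nkd2 o2* against *nkd2*, and *nkd1 nkd2 o2* against *nkd1 nkd2*, among 24239 genes tested. The late genes had the most calls in the *nkd1* background, where 82 members were lower (8.34% of all genes tested) and 16 higher (8.28%), with a median log2FC of −0.71 against 0.01 over all genes. In the *nkd2* background 33 members were lower (6.31%) and 32 higher (8.14%), with a median of −0.08. In the *nkd1 nkd2* background 37 were lower (5.42%) and 27 higher (3.77%), with a median of 0.01. Whether the effect of *o2* differed between these backgrounds was not tested at 16 DAP. The split between higher and lower depended on the scaling. With library size alone in place of TMM, the median of all genes lay at 0.63, 0.27, and 0.40 in the 3 comparisons, and the calls were 33 members higher and 59 lower, 44 members higher and 26 lower, and 57 members higher and 24 lower. The median over the members then became 0.20 in the *nkd2* background. In the *nkd1 nkd2* background, leaving out replicate 3 gave 36 higher and 24 lower, and the median was −0.10 without replicate 2.

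17 members were lower in all 3 comparisons, against 1.63% of all genes tested, and 2 were higher in all 3 (1.05%). 71 members were lower in at least 1 and higher in none (12.8%), 35 were higher in at least 1 and lower in none (13.6%), 21 were called in opposite directions (0.879%), and 73 were called in none (72.8%). Gene annotation was read from only a part of the gene modules in the study's supplement, 1141 gene IDs, and from names in the study's text. The 22 members found there, 18 of them with a name or function, were mostly lower without O2. Members in the rest of the modules are not among the 22. In the *nkd1*, *nkd2*, and *nkd1 nkd2* backgrounds 21, 17, and 15 of the 22 were lower and 0, 1, and 1 higher. Those modules were built on these libraries and are not independent evidence of direction. By function, 3 of 15 annotated heat shock and chaperone genes were members, as were 3 of 30 genes of nitrogen and amino acid metabolism, 2 of 27 of lipid metabolism, 1 of 33 of redox and detoxification, 1 of 16 defence genes, and 1 of 49 TF genes. The gene *hsftf17* was counted in both the heat shock and the TF list. The allantoate deiminase gene Zm00001d046952 was not in the nitrogen list. No member was among the 13 storage protein, 18 starch and sugar, and 36 transporter genes annotated. The same held for the 7 abscisic acid, 4 photosynthesis, and 3 maturation and oil body genes annotated. Members other than the 22 were not classified by function. These counts therefore do not show which functions were absent among the late genes.

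The allantoate deiminase gene Zm00001d046952 was lower without O2 in each background at 16 DAP. It measured 124, 119.7, 124, and 121 CPM in *nkd1* and 26.3, 25.2, 24.7, and 24.4 CPM in *nkd1 o2* (log2FC −2.91 ± 0.15 (SE), edgeR adjusted P = 7.02e-15). It measured 139, 155, 130.5, and 130.5 CPM in *nkd2* and 31.6, 30.4, 35.9, and 25.3 CPM in *nkd2 o2* (log2FC −2.45 ± 0.14 (SE), edgeR adjusted P = 2.67e-13). In *nkd1 nkd2* it measured 115, 117, 119, and 60.7 CPM and in *nkd1 nkd2 o2* 33.6, 26.5, 33.3, and 38.01 CPM (log2FC −2.05 ± 0.14 (SE), edgeR adjusted P = 4.80e-12). None of the 3 pairs of groups overlapped. The glyoxalase I family gene Zm00001d009797 measured 56.001, 51.5, 63.5, and 54.7 CPM in *nkd1* and 4.03, 9.75, 9.16, and 7.54 CPM in *nkd1 o2* (log2FC −3.51 ± 0.31 (SE), edgeR adjusted P = 8.05e-10). It measured 44.998, 34.8, 42.2, and 44.9 CPM in *nkd1 nkd2* and 0.9696, 1.49, 1.09, and 4.93 CPM in *nkd1 nkd2 o2* (log2FC −4.72 ± 0.34 (SE), edgeR adjusted P = 1.09e-11), where library 4 was the highest and the log2FC without replicate 4 was −5.49. The difference was smaller between *nkd2*, with 39.5, 42.6, 35.3, and 45.2 CPM, and *nkd2 o2*, with 15.7, 18.2, 19.3, and 22.5 CPM (log2FC −1.37 ± 0.29 (SE), edgeR adjusted P = 3.51e-04). With library size alone in place of TMM, values in the *nkd1* background lay about 0.63 higher on the log2 scale, at −2.28 for the first gene and −2.89 for the second.

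Of the lipid genes, one was lower without O2 in all 3 backgrounds and the other in the *nkd1* and *nkd2* backgrounds. The acyl-CoA oxidase gene Zm00001d048890 measured 13.9, 14.8, 12.3, and 9.07 CPM in *nkd1* and 2.097, 1.89, 2.15, and 0.635 CPM in *nkd1 o2* (log2FC −3.51 ± 0.39 (SE), edgeR adjusted P = 4.59e-08). It measured 15.1, 29.2, 19.1, and 7.296 CPM in *nkd2* and 4.12, 2.56, 3.65, and 4.83 CPM in *nkd2 o2* (log2FC −2.49 ± 0.37 (SE), edgeR adjusted P = 4.36e-06). In the *nkd1 nkd2* background the values were 11.8, 7.63, 10.8, and 5.46 CPM with O2 and 4.38, 3.85, 3.48, and 4.43 CPM without (log2FC −1.56 ± 0.36 (SE), edgeR adjusted P = 0.00151). The triglyceride lipase gene Zm00001d025827 measured 10.01, 12.5, 10.6, and 15.4 CPM in *nkd1* and 4.15, 3.97, 3.42, and 3.02 CPM in *nkd1 o2* (log2FC −2.36 ± 0.30 (SE), edgeR adjusted P = 3.07e-07). It measured 16.1, 20.1, 18.7, and 5.39 CPM in *nkd2* and 5.09, 2.96, 4.02, and 5.73 CPM in *nkd2 o2* (log2FC −2.03 ± 0.29 (SE), edgeR adjusted P = 2.83e-06). Library 4 of *nkd2* was the low one of its group and overlapped *nkd2 o2*. In the *nkd1 nkd2* background the groups also overlapped, with 5.49, 5.76, 7.12, and 4.03 CPM with O2 and 3.58, 4.41, 3.69, and 3.16 CPM without, and the difference fell just short of the limit of 1 (log2FC −0.999 ± 0.29 (SE), edgeR adjusted P = 0.00963), which it passed without replicate 2 or 4 (−1.10 and −1.05). The proline oxidase gene Zm00001d029853 measured 40.8, 41.3, 86.8, and 46.98 CPM in *nkd1* and 3.598, 12.7, 13.3, and 6.45 CPM in *nkd1 o2* (log2FC −3.21 ± 0.67 (SE), edgeR adjusted P = 3.11e-04). Library 3 of *nkd1* was the highest of its group. In the *nkd2* background the order of its CPM values was the opposite, with 23.2, 34.6, 20.3, and 35.03 CPM in *nkd2* and 62.02, 81.2, 90.5, and 73.9 CPM in *nkd2 o2*. This difference was not called, and the gene was called higher without O2 in no background. The serine--glyoxylate aminotransferase gene Zm00001d031403 measured 4.32, 4.59, 5.59, and 2.66 CPM in *nkd1* and had no read in the 4 *nkd1 o2* libraries, so that it was at least 62.1-fold lower, taking 3 counts per library as the floor. The related gene Zm00001d031349 measured 5.32, 6.22, 6.68, and 3.68 CPM in *nkd1* and was likewise without a read in *nkd1 nkd2 o2*, at least 90.8-fold less in libraries that differ from *nkd1* in both *nkd2* and *o2*. Both genes were called lower in all 3 comparisons, and how the counting divided reads between such related genes is not given in the sources used here.

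The heat shock 70 kDa gene Zm00001d048073 showed the same direction with wider spread. It measured 224, 231, 249, and 101.2 CPM in *nkd1* and 9.13, 9.99, 11.5, and 7.11 CPM in *nkd1 o2* (log2FC −5.05 ± 0.48 (SE), edgeR adjusted P = 3.05e-09), and −4.41 with library size alone. It measured 154, 171, 155, and 20.8 CPM in *nkd2* and 27.1, 46.1, 50.01, and 90.8 CPM in *nkd2 o2* (log2FC −1.48 ± 0.41 (SE), edgeR adjusted P = 0.00503). Library 4 of *nkd2* lay below all *nkd2 o2* libraries, and the call was lost without replicate 1, 2, or 3 (log2FC −1.12, −1.23, and −1.30) and in a fit of these 8 libraries alone (−1.47), whereas without replicate 4 it was −2.26. It measured 93.4, 78.6, 91.1, and 71.5 CPM in *nkd1 nkd2* and 32.1, 58.2, 26.2, and 25.96 CPM in *nkd1 nkd2 o2* (log2FC −1.65 ± 0.42 (SE), edgeR adjusted P = 0.00324), without overlap. Without replicate 3 this value was −1.46 and no longer past the threshold. The thaumatin-like gene Zm00001d022637 measured 20.1, 19.2, 21.99, and 28.4 CPM in *nkd1* and 1.87, 2.97, 7.62, and 1.42 CPM in *nkd1 o2* (log2FC −3.32 ± 0.57 (SE), edgeR adjusted P = 2.89e-05, and −4.04 without replicate 3). It measured 20.6, 12.7, 23.3, and 5.78 CPM in *nkd1 nkd2* and 0.611, 0.368, 0.0586, and 2.44 CPM in *nkd1 nkd2 o2* (log2FC −4.59 ± 0.63 (SE), edgeR adjusted P = 1.98e-06), a value that ranged from −6.19 without replicate 4 to −3.90 without replicate 3. Between *nkd2*, with 19.5, 24.9, 18.2, and 15.2 CPM, and *nkd2 o2*, with 12.4, 12.8, 17.2, and 31.5 CPM, the groups overlapped and the difference did not pass the test (log2FC −0.33 ± 0.51 (SE), edgeR adjusted P = 0.649).

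Some members were called higher without O2, or were called in opposite directions in separate backgrounds. The 2 members that were higher in all 3 comparisons were Zm00001d032264 and Zm00001d031412, named after their values were seen. Zm00001d032264 measured 7.58, 5.95, 5.96, and 6.66 CPM in *nkd1 nkd2* and 23.6, 24.1, 19.4, and 25.1 CPM in *nkd1 nkd2 o2* (log2FC 1.41 ± 0.30 (SE), edgeR adjusted P = 5.80e-04). Zm00001d031412 measured 13.1, 15.9, 12.6, and 6.697 CPM in *nkd1 nkd2* and 44.8, 47.7, 32.4, and 30.002 CPM in *nkd1 nkd2 o2* (log2FC 1.28 ± 0.20 (SE), edgeR adjusted P = 1.77e-05). All 4 libraries without O2 were above all 4 with O2 in both genes. Zm00001d008841 was called in opposite directions. It measured 52.5, 50.6, 67.5, and 37.4 CPM in *nkd1* and 28.7, 30.3, 22.5, and 20.4 CPM in *nkd1 o2* (log2FC −1.66 ± 0.45 (SE), edgeR adjusted P = 0.00371), but 10.02, 9.15, 9.98, and 1.83 CPM in *nkd2* and 44.9, 105, 85.99, and 69.2 CPM in *nkd2 o2* (log2FC 3.03 ± 0.48 (SE), edgeR adjusted P = 1.03e-05). With the same *o2* allele present on both sides, *nkd1 o2* was also compared with *o2*. Here 48 members were lower (4.06% of all genes tested) and 28 higher (5.94%), a split of 44 and 15 without replicate 3. Zm00001d042922 measured 86.6, 46.9, 38.4, and 46.8 CPM in *o2* and 8.39, 4.93, 8.06, and 4.34 CPM in *nkd1 o2* (log2FC −3.25 ± 0.49 (SE), edgeR adjusted P = 1.12e-05). Zm00001d001206 measured 2.68, 4.36, 4.04, and 1.05 CPM in *o2* and 0.0206, 0.217, 0.244, and 0.279 CPM in *nkd1 o2* (log2FC −4.14 ± 0.69 (SE), edgeR adjusted P = 4.00e-05). Both were lower in every *nkd1 o2* library. In contrast, Zm00001d013276 measured 1.19, 1.03, 0.943, and 0.335 CPM in *o2* and 6.17, 10.2, 6.69, and 5.003 CPM in *nkd1 o2* (log2FC 2.85 ± 0.44 (SE), edgeR adjusted P = 1.50e-05), again without overlap. In *nkd2 o2* against *o2*, 19 members were higher (3.01%) and 13 lower (1.71%), and the total of 32 called (4.72%) was 19 without replicate 2 and 21 without replicate 3. The 19 higher were 11 without replicate 2 and 30 without replicate 4, and the 13 lower were 7, 8, and 8 without replicates 1, 2, and 3.

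**Figure D4:**
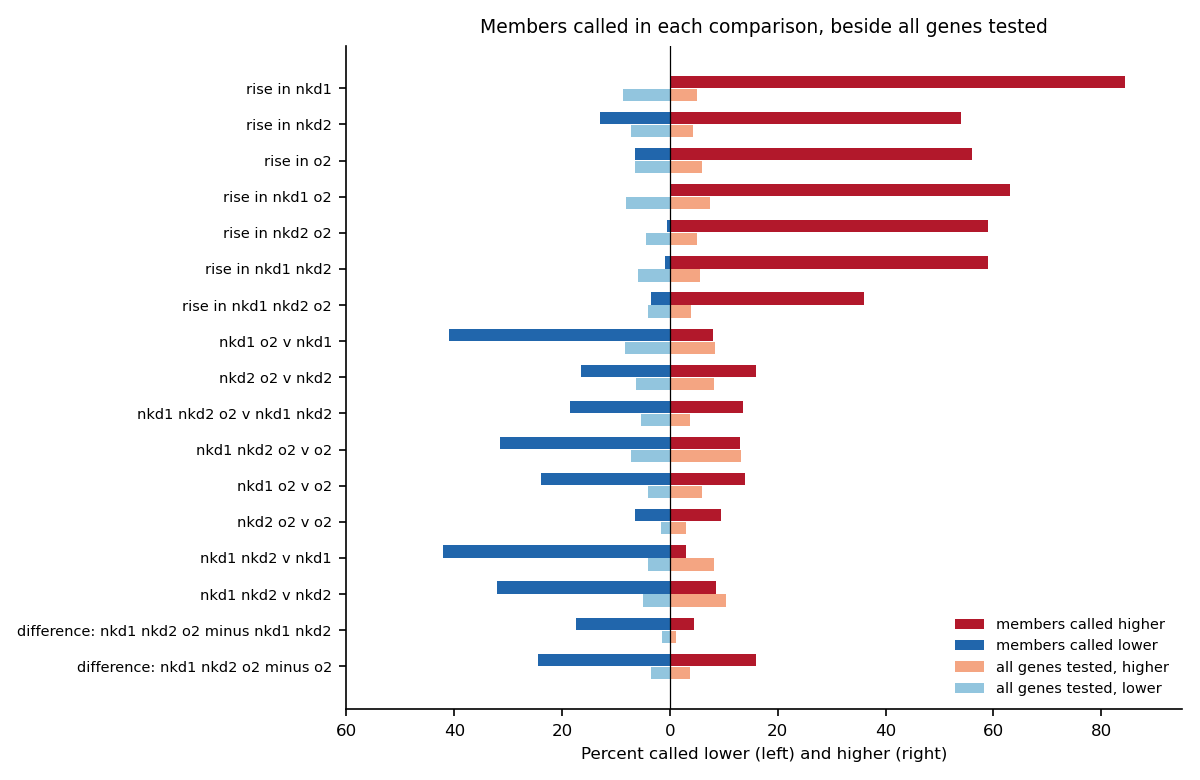
Percent of the 200 late genes called higher (dark red, right) and lower (dark blue, left) by edgeR in each comparison, beside the percent of all genes tested (pale bars), with the rises from 12 to 16 DAP first, then 16 DAP comparisons, then differences in rise. The rises lie mostly to the right, from 36% in *nkd1 nkd2 o2* to 84.5% in *nkd1*, and *nkd1 nkd2* against *nkd1* at 16 DAP is almost all to the left (6 higher, 84 lower).

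Most late genes called were lower in *nkd1 nkd2* than in either *nkd* single mutant, comparisons that add the loss of NKD2 to *nkd1-Ds* and the reverse. In *nkd1 nkd2* against *nkd1* at 16 DAP, 84 members were lower (4.07% of all genes tested) and 6 higher (8.12%), with a median log2FC of −0.90 against 0.03 over all genes. Of the 90 members called (12.2% of all genes tested), 72 had groups that did not overlap, against 9.58% of all genes tested. With library size alone, 10 were higher. In *nkd1 nkd2* against *nkd2*, 64 were lower (4.91%) and 17 higher (10.4%), with a median of −0.53. These 2 comparisons share the *nkd1 nkd2* libraries. Loss of both NKD genes in the absence of O2 gave, in *nkd1 nkd2 o2* against *o2*, 63 members lower (7.27%) and 26 higher (13.3%), with a median of −0.10. With library size alone the calls were 38 members higher and 50 lower, with a median of 0.23. *nkd1 nkd2* against *nkd1* and *nkd1 nkd2 o2* against *o2* share no libraries, but the first adds the loss of NKD2 alone and the second that of both NKD genes. 40 members were lower in both (47.6% of the 84 and 63.5% of the 63), against 1.84% of all genes tested.

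Zm00001d038806, the second most abundant member in WT, was among these 40. It measured 206, 214, 466, and 201 CPM in *nkd1* and 31.1, 24.8, 37.2, and 26.5 CPM in *nkd1 nkd2* (log2FC −3.59 ± 0.39 (SE), edgeR adjusted P = 8.70e-08). It measured 257, 123, 71.7, and 201 CPM in *o2* and 104, 104, 44.5, and 51.3 CPM in *nkd1 nkd2 o2* (log2FC −1.45 ± 0.36 (SE), edgeR adjusted P = 0.00148), where the groups overlapped. Zm00001d020898 measured 286, 294, 290.2, and 227 CPM in *nkd1* and 154, 121, 139.7, and 61.9 CPM in *nkd1 nkd2* (log2FC −1.60 ± 0.21 (SE), edgeR adjusted P = 1.70e-06). Zm00001d010172 measured 4.49, 3.21, 9.36, and 1.41 CPM in *nkd1* and 0.547, 0.552, 1.31, and 0.114 CPM in *nkd1 nkd2* (log2FC −3.33 ± 0.89 (SE), edgeR adjusted P = 0.00504). It measured 47.7, 90.8, 64.1, and 17.1 CPM in *o2* and 0.443, 0.426, 0.332, and 8.76 CPM in *nkd1 nkd2 o2* (log2FC −4.79 ± 0.81 (SE), edgeR adjusted P = 1.76e-05). One *nkd1 nkd2 o2* library stood above the other 3, and the log2FC was −4.08 without replicate 2 and −7.68 without replicate 4. Zm00001d015558 measured 8.18, 7.803, 14.3, and 4.27 CPM in *nkd1* and 1.11, 0.237, 2.72, and 0.649 CPM in *nkd1 nkd2* (log2FC −3.28 ± 0.71 (SE), edgeR adjusted P = 7.91e-04). It measured 28.02, 32.5, 25.3, and 26.2 CPM in *o2* and 0.0843, 0.252, 0.527, and 3.96 CPM in *nkd1 nkd2 o2* (log2FC −4.86 ± 0.74 (SE), edgeR adjusted P = 4.02e-06), and without replicate 4 the latter value was −6.89. Its *o2* libraries lay above all *nkd1 nkd2 o2* libraries.

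A few members went the other way. Of the 6 members higher in *nkd1 nkd2* than in *nkd1*, 3 were also higher in *nkd1 nkd2 o2* than in *o2* (Zm00001d040562, Zm00001d040593, and Zm00001d027682, the last outside the rule for names), against 5.27% of all genes tested. Zm00001d040562 measured 4.57, 3.34, 2.51, and 1.81 CPM in *nkd1* and 24.1, 27.97, 14.8, and 8.395 CPM in *nkd1 nkd2* (log2FC 2.21 ± 0.29 (SE), edgeR adjusted P = 1.49e-06). Zm00001d040593 measured 25.2, 20.4, 33.3, and 45.98 CPM in *nkd1* and 124, 109, 154, and 64.5 CPM in *nkd1 nkd2* (log2FC 1.46 ± 0.25 (SE), edgeR adjusted P = 6.33e-05). It measured 41.5, 59.8, 70.4, and 39.2 CPM in *o2* and 279, 236, 189.96, and 173 CPM in *nkd1 nkd2 o2* (log2FC 1.74 ± 0.25 (SE), edgeR adjusted P = 1.94e-06). The groups of both genes did not overlap. The metallothionein-like gene Zm00001d039914 was the one member higher in *nkd1 nkd2* than in *nkd1* but lower in *nkd1 nkd2 o2* than in *o2*, against 0.107% of all genes tested. It measured 2.27, 3.03, 3.68, and 5.904 CPM in *nkd1* and 13.2, 15.04, 11.3, and 26.2 CPM in *nkd1 nkd2* (log2FC 1.74 ± 0.33 (SE), edgeR adjusted P = 1.70e-04), but 0.696, 0.561, 0.605, and 0.451 CPM in *nkd1 nkd2 o2* (log2FC −5.22 ± 0.39 (SE), edgeR adjusted P = 2.10e-11 against *nkd1 nkd2*). In WT it measured 4.18, 6.08, 6.15, and 9.65 CPM, below every *nkd1 nkd2* library.

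Another group of members went in opposite directions in these comparisons. 10 members were lower in *nkd1 nkd2* than in *nkd1* but higher in *nkd1 nkd2 o2* than in *o2*, against 0.235% of all genes tested, among them *hsftf17*. Zm00001d047973 measured 10.4, 10.9, 13.01, and 1.64 CPM in *nkd1* and 2.03, 1.83, 2.47, and 2.404 CPM in *nkd1 nkd2* (log2FC −2.44 ± 0.39 (SE), edgeR adjusted P = 2.09e-05). It measured 0, 0.0206, 0.173, and 0 CPM in *o2* and 3.01, 3.12, 2.19, and 3.37 CPM in *nkd1 nkd2 o2* (log2FC 5.51 ± 0.58 (SE), edgeR adjusted P = 1.08e-08), and 8.06 without replicate 3. Nearly no read of it was counted in *o2*, and library 4 of *nkd1* lay below all 4 *nkd1 nkd2* libraries, against the direction of the other *nkd1* libraries. Zm00001d006563 measured 4.01, 10.1, 2.21, and 4.703 CPM in *nkd1* and 0.724, 1.52, 1.09, and 0.8395 CPM in *nkd1 nkd2* (log2FC −2.73 ± 0.45 (SE), edgeR adjusted P = 3.77e-05). It measured 0.418, 0.867, 0.366, and 0.526 CPM in *o2* and 11.003, 24.9, 22.3, and 10.1 CPM in *nkd1 nkd2 o2* (log2FC 4.67 ± 0.49 (SE), edgeR adjusted P = 1.03e-08). All 4 *nkd1 nkd2 o2* libraries lay above all 4 *o2* libraries. *hsftf17* (Zm00001d033987) measured 5.54, 4.92, 10.9, and 8.87 CPM in *nkd1* and 0.971, 0.374, 1.21, and 1.43 CPM in *nkd1 nkd2* (log2FC −3.31 ± 0.55 (SE), edgeR adjusted P = 3.98e-05). It measured 2.82, 0.784, 0.616, and 0.9801 CPM in *o2* and 6.53, 11.3, 4.32, and 5.705 CPM in *nkd1 nkd2 o2* (log2FC 2.06 ± 0.52 (SE), edgeR adjusted P = 0.00175), and 2.83 without replicate 1. Zm00001d049244 measured 22.3, 19.05, 16.996, and 29.5 CPM in *nkd1* and 1.41, 0.867, 1.56, and 0.859 CPM in *nkd1 nkd2* (log2FC −4.62 ± 0.47 (SE), edgeR adjusted P = 3.36e-08). It measured 7.17, 5.08, 2.46, and 4.09 CPM in *o2* and 25.3, 34.2, 18.6, and 24.01 CPM in *nkd1 nkd2 o2* (log2FC 2.11 ± 0.41 (SE), edgeR adjusted P = 1.11e-04). Neither pair of groups overlapped in these 2 genes.

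**Figure D5:**
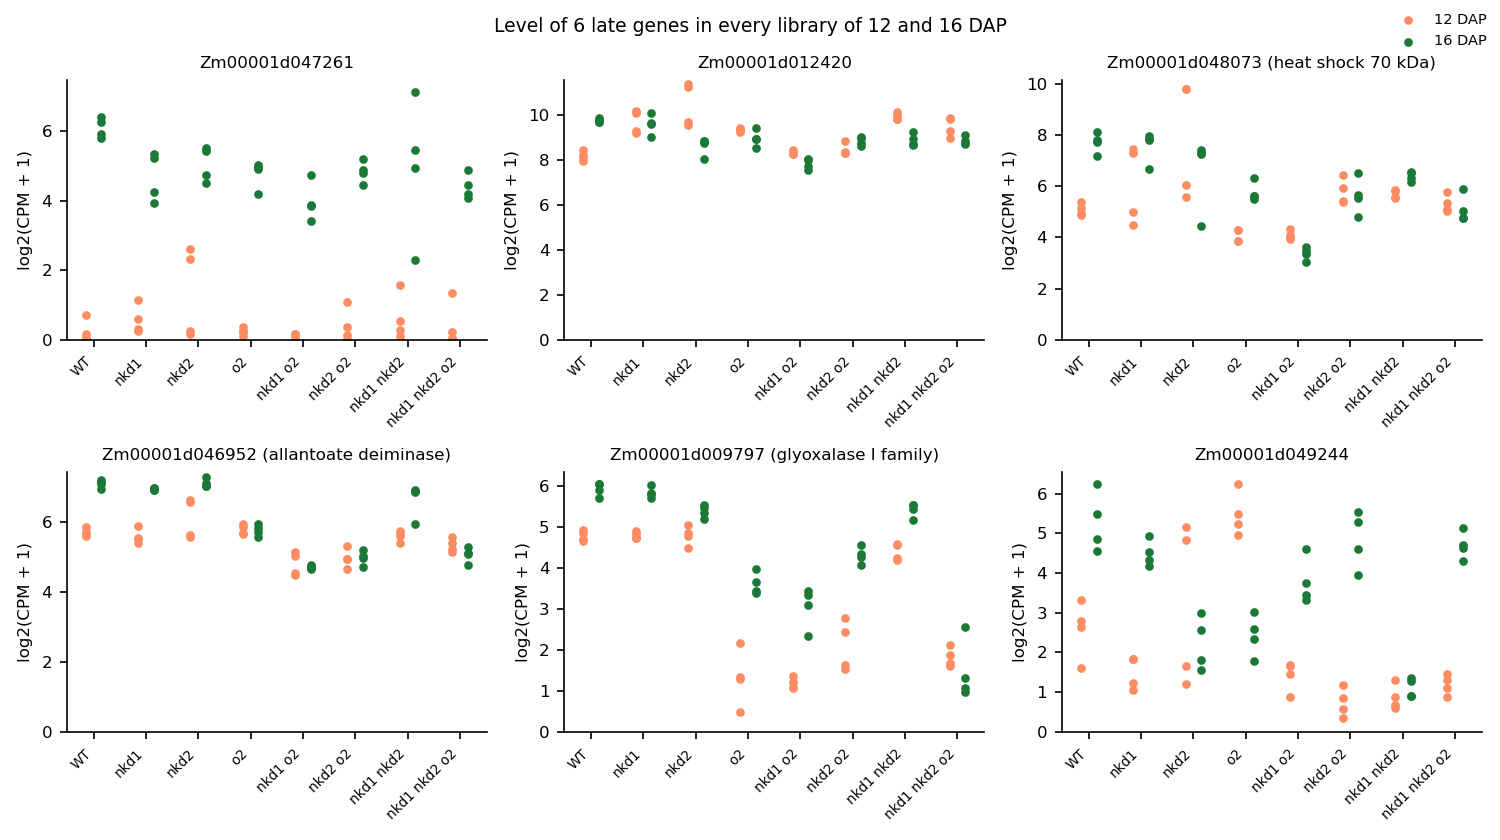
Levels of 6 late genes as log2(CPM + 1) in every library at 12 DAP (orange) and 16 DAP (green), with one point per library and the 8 genotypes along each axis. Zm00001d049244 lies at 30.04 to 74.5 CPM in *o2* at 12 DAP and at 2.46 to 7.17 CPM at 16 DAP, the reverse of its order in WT. Zm00001d047261 is higher at 16 than at 12 DAP within each of the 8 genotypes, without overlap. Its library 4 of *nkd1 nkd2* at 16 DAP lies slightly below libraries 1 and 2 of *nkd2* at 12 DAP.

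Whether the rise from 12 to 16 DAP itself differed between genotypes was tested as a difference of 2 rises in the fit of 96 libraries. The rise of *nkd1 nkd2 o2* was smaller than that of *o2* in 49 members (3.5% of all genes tested) and larger in 32 (3.8%). It was smaller than that of *nkd1 nkd2* in 35 members (1.45%) and larger in 9 (1.15%). The median difference over the members was −0.65 and −0.65, and these 2 comparisons share the *nkd1 nkd2 o2* libraries. In either direction, 81 and 44 members were called, against 7.3% and 2.6% of all genes tested. The second count was sensitive to single replicates, with 2 larger and 27 smaller without replicate 2, and totals of 27, 29, and 28 without replicates 1, 2, and 3. The 49 smaller rises against *o2* were 32 without replicate 3. With library size alone, 12 rises were larger and 27 smaller than in *nkd1 nkd2*, and 34 were larger and 40 smaller than in *o2*. Zm00001d049244 measured 74.5, 44.2, 36.6, and 30.04 CPM in *o2* at 12 DAP before the 16 DAP values above, but 1.49, 1.76, 1.14, and 0.825 CPM in *nkd1 nkd2 o2* at 12 DAP. The difference in rise was log2FC 7.37 ± 0.90 (SE), edgeR adjusted P = 2.72e-09 against *o2* and log2FC 3.54 ± 0.92 (SE), edgeR adjusted P = 0.00835 against *nkd1 nkd2*. The latter was 3.05 without replicate 2 and no longer past the threshold. Zm00001d046471 measured 21.9, 16.8, 20.1, and 15.1 CPM in *o2* at 12 DAP and 2.42, 1.57, 1.33, and 3.08 CPM at 16 DAP, and 1.91, 2.88, 1.802, and 1.54 CPM in *nkd1 nkd2 o2* at 12 DAP and 13.95, 25.1, 10.4, and 13.2 CPM at 16 DAP (log2FC 5.85 ± 0.75 (SE), edgeR adjusted P = 1.07e-08). Zm00001d007027 measured 37.1, 19.5, 21.6, and 12.8 CPM in *o2* at 12 DAP and 3.75, 2.29, 1.37, and 0.526 CPM at 16 DAP, and 0.489, 1.26, 0.721, and 0.495 CPM in *nkd1 nkd2 o2* at 12 DAP and 7.34, 8.98, 6.33, and 11.7 CPM at 16 DAP (log2FC 6.82 ± 1.09 (SE), edgeR adjusted P = 1.91e-06). All 3 genes had lower CPM at 16 than at 12 DAP in *o2* and higher CPM in *nkd1 nkd2 o2*, with no overlap. For *hsftf17*, with 4.12, 2.63, 1.905, and 1.37 CPM in *o2* and 0.672, 0.396, 0.3603, and 0.4402 CPM in *nkd1 nkd2 o2* at 12 DAP, the difference in rise was log2FC 4.59 ± 1.14 (SE), edgeR adjusted P = 0.00207, and 3.98 and 5.23 without replicates 2 and 1.

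The rise of Zm00001d008841 was smaller in *nkd1 nkd2 o2* than in *o2*, with the 12 and 16 DAP values of *o2* and *nkd1 nkd2 o2* given above (log2FC −6.04 ± 0.92 (SE), edgeR adjusted P = 6.93e-07, and −6.82 without replicate 2). Against *nkd1 nkd2*, Zm00001d020976 measured 1.07, 2.01, 2.095, and 1.097 CPM in *nkd1 nkd2* at 12 DAP and 0.777, 0.434, 0.569, and 2.06 CPM at 16 DAP, and 1.55, 1.89, 1.12, and 1.05 CPM in *nkd1 nkd2 o2* at 12 DAP and 9.86, 10.1, 8.03, and 9.97 CPM at 16 DAP (log2FC 3.17 ± 0.69 (SE), edgeR adjusted P = 0.00163, and 3.89 without replicate 4). Its CPM at 16 DAP was above all 12 DAP libraries in *nkd1 nkd2 o2* and not in *nkd1 nkd2*. The neighbouring identifiers Zm00001d051412 and Zm00001d051413 followed each other closely. Zm00001d051412 measured 0.1704, 0.04097, 0.123, and 0.0183 CPM in *nkd1 nkd2* at 12 DAP and 1.501, 0.7096, 1.36, and 0.4198 CPM at 16 DAP, and 0.672, 0.576, 0.2002, and 0.385 CPM in *nkd1 nkd2 o2* at 12 DAP and 0.105, 0.116, 0.0976, and 0.205 CPM at 16 DAP (log2FC −5.54 ± 1.01 (SE), edgeR adjusted P = 1.39e-04). Zm00001d051413 measured 0.0852, 0.0615, 0, and 0.0731 CPM and then 1.501, 0.552, 1.83, and 0.267 CPM in *nkd1 nkd2*, and 0.163, 0.558, 0.1001, and 0.1101 CPM and then 0.169, 0.0967, 0.371, and 0.267 CPM in *nkd1 nkd2 o2* (log2FC −4.54 ± 1.09 (SE), edgeR adjusted P = 0.00394). For the latter the value was −5.35 without replicate 4 and −3.67, no longer past the threshold, without replicate 2. Both had higher CPM at 16 than at 12 DAP in all *nkd1 nkd2* libraries and stayed under 0.5 CPM in *nkd1 nkd2 o2* at 16 DAP. With adjacent numbers and a counting mode not given in the sources used here, reads could have been shared between them, and they are not counted as independent.

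Some late genes were almost absent in single genotypes. Members under 0.5 CPM in all 4 libraries at 16 DAP, named here after their values were seen, numbered 5 in *nkd1 nkd2 o2* (Zm00001d031349, Zm00001d031403, Zm00001d051412, Zm00001d051413, and Zm00001d001996) and 4 in *nkd1 o2* (Zm00001d031349, Zm00001d031403, Zm00001d001206, and Zm00001d020955). There were 3 in *o2* (Zm00001d031403, Zm00001d047973, and Zm00001d042711), 2 in *nkd2* (Zm00001d008485 and Zm00001d013994), and 1 each in *nkd2 o2* (Zm00001d024505) and *nkd1 nkd2* (Zm00001d020955). *nkd1* and WT had none. Others were present in some libraries of a group and absent in the rest. In 41 members (20.5%) at least 1 of the 24 groups held a library under 1 CPM beside one of at least 5 CPM and 10 times higher, against 123 of the 11333 qualifying genes (1.09%). Zm00001d024505 was split in 9 groups, WT included. It measured 25.03, 0.1498, 0.1798, and 0.418 CPM in WT at 12 DAP and 34.2, 0.125, 0.0789, and 31.99 CPM at 16 DAP, so that 1 and then 2 libraries carried all of its signal and its place among the members rests on them. Zm00001d050969 was under 1 CPM in 12 of the 96 libraries, between 1 and 5 CPM in 6, and between 6.01 and 29.6 CPM in the other 78. The 4 WT libraries at 12 DAP were among the 12, with 0.0796, 0.0749, 0.2197, and 0.511 CPM, and the 4 at 16 DAP measured 12.9, 12.8, 13.3, and 13.3 CPM. It rose in none of the 7 mutants.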

How the data were processed

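RNA-seq of pooled endosperms was analysed in 96 libraries (24 groups of 4). Per the submitters' processing notes and the study's methods, the authors mapped reads to B73 RefGen_v4 with HISAT2 2.1.0, used SAMtools 1.9, and deposited raw counts per gene from HTSeq 0.11.1, one table per library and without normalization. The counting mode, strand setting, and annotation release are not given in the sources used here, and W22 reads were placed on B73 genes. Reads without a gene row (13.4% to 29.0% of a table) were left out. Reads on genes ranged from 31327665 to 68052826 per library, so replicate spread sets the precision for all but the lowest genes.

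Counts were tested with edgeR 4.0.16 in R 4.3.3 (TMM, filterByExpr, quasi-likelihood test, Benjamini-Hochberg adjustment over all genes tested), in a fit of 96 libraries and 24 groups for changes in time and a fit of 32 libraries at 16 DAP. The SE of a log2FC was the log2FC divided by the square root of F. Alternatives were DESeq2 1.42.0, its size factors, library size alone, no low-count filter, only the libraries compared, a replicate block, and each replicate left out. Tables and figures were made with Python 3.11.15, numpy 2.4.6, pandas 2.3.3, and matplotlib 3.10.9. In simulations with 200 genes given a log2FC of 2, 195 were recovered for the rise in *nkd1 nkd2* (26199 genes). For the difference in rise of *nkd1 nkd2 o2* and *o2*, 179 were recovered (26205 genes). For *nkd1 nkd2 o2* against *o2* at 16 DAP, 198 were recovered (23648 genes). Smaller changes, nearer the limit of 1, were not simulated. The recovery of the members themselves, some with split groups or few reads, was not tested.

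The replicate numbers come from the labels, which do not say that they link ears. Libraries of equal number deviated together beyond a correlation of 0.1 in all 4 pairs only in the rise of *nkd1* (0.112 to 0.159), where the block left 169 members called. No pair of replicates agreed within counting noise (chi-square per gene at least 9.94).

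The members, lists, and tests were chosen with earlier results of these data known. Members were named when they were among the 15 with the highest WT level at 16 DAP or the 10 with the highest L, were annotated TF or functional list genes, or had the 3 largest called rises or falls of the comparisons. Members with no read in one group of a comparison are given as bounds, and fitted values of members near 0 rest on few reads. The sequences of the members were not used here.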

Additional observations from a re-analysis of the deposited data

Results flagged for a closer look

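Single libraries stood far from the other 3 of their group in 19 of 166 groups examined, by the gap to the nearest library as a share of the group's range (Dixon's 95% limit, which chance passes in about 1 of 20 groups). For the summed CPM of the members the share was 0.965 in *nkd2* at 8 DAP and 0.905 in *nkd2 o2* at 16 DAP. In *nkd1 nkd2 o2* at 16 DAP it was 0.987 for Zm00001d010172, 0.886 for Zm00001d015558, 0.878 for Zm00001d020976, and 0.868 for Zm00001d009797, and at 12 DAP it was 0.891 for Zm00001d047261 and 0.863 for Zm00001d051413. In *nkd1* at 16 DAP it was 0.952 for Zm00001d038806, 0.878 for Zm00001d020898, 0.866 for Zm00001d029853, and 0.834 for Zm00001d048073. The remaining ones were 0.884 for Zm00001d048073 and 0.893 for Zm00001d008841 in *nkd2* at 16 DAP, 0.957 for Zm00001d024303 in *nkd1 nkd2* at 12 DAP, and 0.924 for Zm00001d046952 in *nkd1 nkd2* at 16 DAP. In *o2* at 16 DAP they were 0.835 for Zm00001d033987, 0.831 for Zm00001d047261, and 0.881 for Zm00001d047973. The pair of libraries of *nkd2* at 12 DAP that held late genes early is not among these, since a pair leaves no single gap.

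The rise from 12 to 16 DAP of *nkd1 nkd2 o2* differed from that of *nkd1 nkd2* in 44 members and from that of *o2* in 81 members by the test of the difference itself. Against *nkd1 nkd2* the difference in log2FC was 3.54 for Zm00001d049244, 3.17 for Zm00001d020976, −5.54 for Zm00001d051412, and −4.54 for Zm00001d051413. Against *o2* it was 7.37 for Zm00001d049244, 4.59 for Zm00001d033987, 5.85 for Zm00001d046471, 6.82 for Zm00001d007027, and −6.04 for Zm00001d008841.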

How the results depend on the processing

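No value given for a single gene changed sign under any alternative run. The median over the members did so with library size alone in *nkd2 o2* against *nkd2* (−0.08 to 0.20) and *nkd1 nkd2 o2* against *o2* (−0.10 to 0.23), and without replicate 2 in *nkd1 nkd2 o2* against *nkd1 nkd2* (0.01 to −0.10). With DESeq2, DESeq2 size factors, library size alone, no low-count filter, only the libraries compared, or the replicate block, each total of members called stayed within 1.5 times the reported one, but counts in one direction moved more. With library size alone, *nkd1 nkd2 o2* against *nkd1 nkd2* had 57 higher and 24 lower in place of 27 and 37, *nkd1 o2* against *nkd1* had 33 higher in place of 16, and *nkd1 nkd2* against *nkd1* had 10 higher in place of 6. With only the libraries compared, 11 members fell in *nkd2* in place of 26. The 2 falls in *nkd1 nkd2* were 1 with DESeq2, DESeq2 size factors, and only the libraries compared. The block changed the call of 0 to 5 members per result and moved no count by more than 1.5 times, and outside the rise of *nkd1* the numbers only name the libraries (correlations of −0.136 to 0.152). Other counts that moved more were those of the rise in *nkd2* without its 12 DAP libraries 3 and 4 (63 against 108 members, a setting chosen after the data were seen), *nkd2 o2* against *o2* without replicates 2 and 3 (19 and 21 against 32), and the difference in rise of *nkd1 nkd2 o2* and *nkd1 nkd2* without replicates 1, 2, and 3 (27, 29, and 28 against 44). Without the 12 DAP libraries 1 and 2 of *nkd1*, also chosen after the data were seen, 162 members rose against 169. Leaving out one replicate at a time gave 154 to 166 members risen in *nkd1*, 113 to 127 in *nkd1 o2*, 103 to 124 in *nkd1 nkd2*, 55 to 76 in *nkd1 nkd2 o2*, 107 to 123 in *nkd2 o2*, 97 to 106 in *nkd2*, and 104 to 110 in *o2*. At 16 DAP it gave 89 to 103 members called in *nkd1 o2* against *nkd1*, 56 to 72 in *nkd2 o2* against *nkd2*, 57 to 74 in *nkd1 nkd2 o2* against *nkd1 nkd2*, 83 to 91 in *nkd1 nkd2 o2* against *o2*, 54 to 76 in *nkd1 o2* against *o2*, 19 to 44 in *nkd2 o2* against *o2*, 81 to 90 in *nkd1 nkd2* against *nkd1*, and 70 to 91 in *nkd1 nkd2* against *nkd2*. The differences in rise gave 27 to 39 against *nkd1 nkd2* and 62 to 73 against *o2*. Of the 200 members, 169 to 184 stayed when one WT replicate was left out (138 in all 4 lists), 169 with TMM-scaled CPM, 149 with a pseudocount of 5, and 136 with a minimum of 10 CPM. Among the single genes named, 12 values under an alternative were no longer past the threshold and 2 passed it, and each is given beside its result. The cause of these shifts was not tested.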
